A study of Homo sapiens with 6 samples.

Results

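The genes described here are 3 angiopoietin-like genes (ANGPTL4, ANGPTL6 and ANGPTL8) and 3 genes of lipases that act outside the cell (LIPC, LIPG and LPL). All 6 were found by Entrez identifier among the 18030 genes of the deposited tables, where they held 20 of 80668 transcripts. The samples were Huh-7 cells, a line from a human hepatocellular carcinoma, with 3 libraries in each of 2 groups. One group, oeALKBH5, had the genotype ALKBH5 overexpression: a plasmid expressing ALKBH5, an enzyme that removes N6-methyladenosine (m6A) from RNA, was put in by electroporation (1250 V, 20 ms, 3 pulses), and RNA was collected 60 h afterwards. The other group was labelled control with the genotype WT. The labels carry the same transfection text for both groups and the series design calls the reference cells parental, so whether control cells were electroporated is not given in the sources used here. Every library came from 1 line grown in DMEM with serum. The titles call the replicates biological but no label names separate cultures, so p-values measure only the spread between these libraries, which may be technical.

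Triglyceride carried in blood is released from lipoproteins by lipases bound to the surface of capillaries. Lipoprotein lipase, the product of LPL, does most of this in muscle and fat. Hepatic lipase, from LIPC, is made by hepatocytes and trims remnant particles and high-density lipoprotein (HDL), and endothelial lipase, from LIPG, cleaves mainly the phospholipids of HDL. Angiopoietin-like proteins are secreted and set the activity of these enzymes: ANGPTL4 inactivates lipoprotein lipase and is induced by fasting, fatty acids and low oxygen, while ANGPTL8 is induced by feeding and takes part in restraining lipoprotein lipase. ANGPTL6 is a secreted liver protein of the same family that has been linked to energy balance rather than to lipase control.

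The libraries held 18607084 to 19378030 estimated counts. ALKBH5 itself stood at 169, 133 and 110 CPM (counts per 1e6, on library sizes adjusted by the trimmed mean of M-values, TMM) in oeALKBH5 replicates 1, 2 and 3, above the controls at 70.5, 74.2 and 75.5. The oeALKBH5 libraries differed more among themselves than the controls did, with replicate 1 apart from the others on the second principal component. Levels of hepatocyte markers, all 9 measured, were lower in oeALKBH5 libraries: they summed to 21443 to 23078 CPM, against 32798 to 33342 CPM in controls. By edgeR all 9 passed as lower, where 22% of all tested genes did. With library size alone in place of TMM 8 of the 9 passed. In bulk RNA, fewer cells of a kind and less RNA per cell cannot be told apart.

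Of the 6 genes, 4 had enough counts to be tested and 2, ANGPTL6 and LPL, did not. ANGPTL4 was 2.01-fold higher in oeALKBH5 cells, and ANGPTL8 was 1.97-fold, LIPG 1.51-fold and LIPC 1.15-fold lower. All 4 passed at an adjusted p under 0.05 with edgeR's quasi-likelihood test, adjusted by Benjamini-Hochberg over all 14168 genes tested, and each of them exceeded the count filter in all 6 libraries. In that fit 42.8% of all tested genes passed, 20.8% higher and 22% lower, so passing by itself was common. The median log2 fold change of the 4 was -0.40, beside 0.01 for all tested genes. The plot of CPM by library shows the groups apart for these 4 genes and overlapping for the other 2. The share of all genes whose groups lie apart was not computed, so being apart is not by itself particular to these 4.

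**Figure D1:**
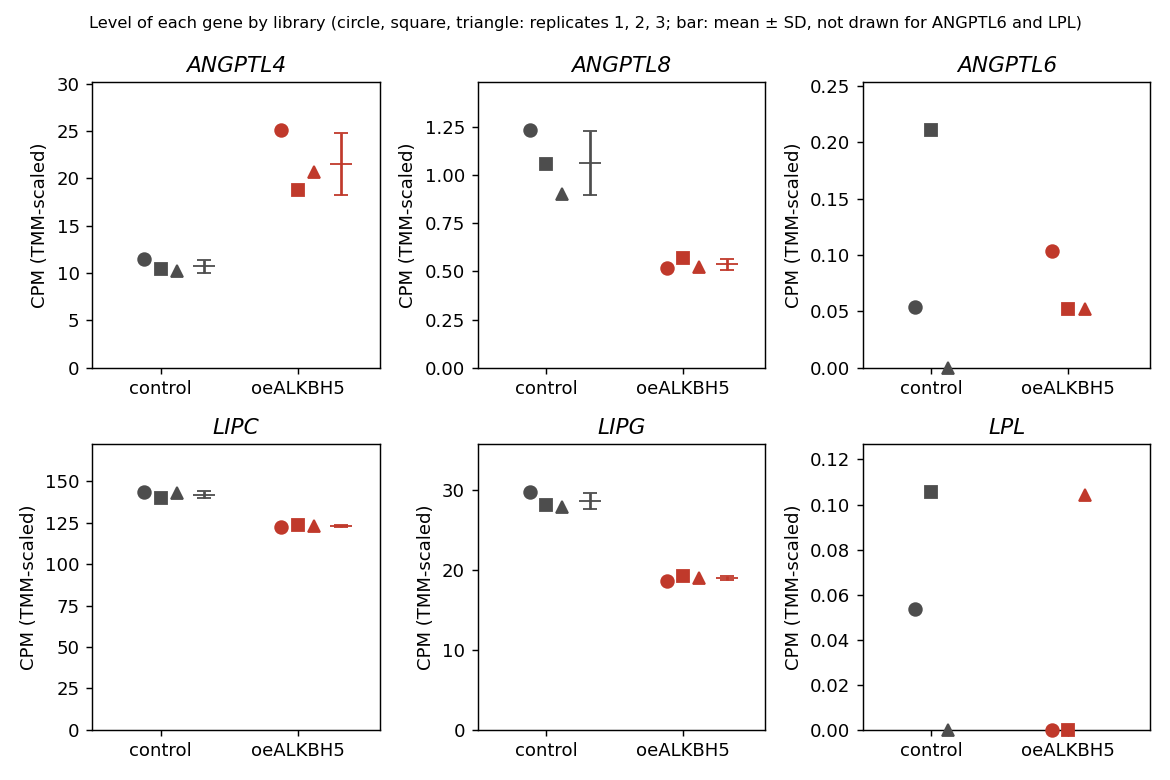
CPM on TMM-scaled library sizes (y axis, from 0) of each gene in the control and oeALKBH5 libraries (x axis), with circles, squares and triangles for replicates 1, 2 and 3 and bars for mean ± SD (n = 3, not drawn for ANGPTL6 and LPL). ANGPTL4 sits between 18.7 and 25.1 CPM in oeALKBH5, above its controls, while ANGPTL8, LIPC and LIPG lie below theirs and ANGPTL6 and LPL stay at 4 counts or fewer per library.

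ANGPTL4 (Entrez 51129) occupies chromosome 19, 8363289 to 8374373, plus strand (GRCh38, annotation from GENCODE release 29). Its main curated transcript has 7 exons over 1879 nt, of which 1218 nt are coding. Its estimated counts were 483, 361 and 396 in oeALKBH5 replicates 1 to 3 and 213, 198 and 192 in the controls. Scaled, these were 25.1, 18.7 and 20.7 CPM against 11.4, 10.5 and 10.2 CPM. The lowest oeALKBH5 library thus stood well above the highest control, and oeALKBH5 replicate 1 was the highest of all, as it was for ALKBH5. The means were 21.5 ± 3.27 and 10.7 ± 0.661 CPM (SD, n = 3 each). The fitted log2 difference was 1.01 (SE 0.102, 95% interval 0.79 to 1.22, edgeR adjusted p = 4.56e-07). Without oeALKBH5 replicate 1 the log2 fold change was 0.88. In the authors' FPKM (fragments scaled to transcript length and to library size) the level went from 5.74 ± 0.310 to 12.2 ± 1.91 (SD, n = 3 each), a difference of 0.97 on the log2(FPKM + 1) scale (limma adjusted p = 1.53e-05). On that scale 45.9% of 12016 genes passed, 29.4% higher and 16.5% lower, so rises were more common than falls there.

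The sequence before the ANGPTL4 start is shown because ANGPTL4 was the gene of the 6 that rose, beside those of ANGPTL8 and LIPC, which fell. The 250 bases upstream of each start are from RefSeq (GRCh38.p14, plus strand, 5′ to 3′): chr19:8363905-8364154 for ANGPTL4, chr19:11239369-11239618 for ANGPTL8 and chr15:58431741-58431990 for LIPC. Each window lies inside the span that GENCODE release 29 gives its gene. Those spans begin upstream of the windows, at 8363289 for ANGPTL4, 11237450 for ANGPTL8 and 58410569 for LIPC. Starts further upstream were not searched, so the matches describe these RefSeq starts only. Capitals mark matches on either strand to any of 5 motifs. The letters ACGTG are the core of the hypoxia response element. The E-box searched was CACGTG, and every E-box so defined also contains the hypoxia core. The TATA box was searched as TATAAA. The unit bound by nuclear receptors was searched as AGGTCA. The last motif was the core of the HNF1 site, bound by hepatocyte nuclear factor 1.
ANGPTL4: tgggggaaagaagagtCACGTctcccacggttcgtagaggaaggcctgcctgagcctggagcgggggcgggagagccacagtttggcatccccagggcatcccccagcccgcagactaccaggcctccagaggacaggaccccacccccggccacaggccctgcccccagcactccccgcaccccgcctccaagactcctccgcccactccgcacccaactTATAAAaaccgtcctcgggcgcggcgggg
ANGPTL8: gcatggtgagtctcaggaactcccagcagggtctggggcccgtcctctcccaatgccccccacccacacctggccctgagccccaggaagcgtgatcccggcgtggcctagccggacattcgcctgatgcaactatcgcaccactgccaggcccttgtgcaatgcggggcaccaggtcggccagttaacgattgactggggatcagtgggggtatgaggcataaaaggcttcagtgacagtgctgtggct
LIPC: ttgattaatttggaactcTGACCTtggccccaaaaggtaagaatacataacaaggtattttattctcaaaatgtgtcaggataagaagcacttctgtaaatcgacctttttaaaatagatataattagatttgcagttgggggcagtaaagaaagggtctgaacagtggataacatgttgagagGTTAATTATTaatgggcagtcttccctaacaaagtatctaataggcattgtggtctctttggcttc
The ANGPTL4 window held ACGTG on the reverse strand at -234 and TATAAA at -29, counted from the start to the match's leftmost base. Among 35116 promoter windows of that length, 18.5% held ACGTG and 10.7% held TATAAA. The ANGPTL8 window held no match to the 5 motifs. The LIPC window held the HNF1 core at -66, which 0.296% of windows do, and AGGTCA on the reverse strand at -232, which 12.1% do. CACGTG, present in 6.34% of windows, was in none of these 3. The LIPG window, not printed, held no match either. A match describes letters only; binding was not measured.

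ANGPTL8 (Entrez 55908; chromosome 19, 11237450 to 11241943, plus strand) encodes a short family member, from a transcript of 4 exons and 872 nt. It was near the lower end of what the counts could measure, with counts of 10, 11 and 10 in oeALKBH5 libraries against 23, 20 and 17 in the controls. That is 0.520, 0.571 and 0.522 CPM against 1.24, 1.06 and 0.902 CPM. Every oeALKBH5 library was below every control, and the oeALKBH5 values were the closer together. The log2 fold change was -0.98 with a wide 95% interval, -1.62 to -0.34 (SE 0.307, edgeR adjusted p = 0.0142). DESeq2 did not call it (adjusted p = 0.0949), nor did edgeR once control replicate 1 was left out (adjusted p = 0.0678); over its alternatives the adjusted p ran from 0.0138 to 0.0949. In FPKM the level was 0.673 ± 0.0404 against 1.26 ± 0.190 (SD, n = 3 each; limma adjusted p = 0.00162), but there it entered the test only through the controls, since no oeALKBH5 library reached an FPKM of 1.

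ANGPTL8 lies inside DOCK6, a gene on the opposite strand, and 350 bases of their annotated exons coincide. Whether counting used strand is not given in the sources used here, so reads of the 2 genes in that stretch could not be told apart. DOCK6 stood at 51.4 ± 4.87 CPM in oeALKBH5 and 48.6 ± 3.66 CPM in control libraries (SD, n = 3 each), with overlapping groups and a log2 fold change of 0.08 (95% interval -0.07 to 0.23). DOCK6 thus held far more counts than ANGPTL8 in both groups, but CPM is not scaled to transcript length. In FPKM the gap was smaller. DOCK6 stood at 8.56 ± 0.777 and ANGPTL8 at 0.673 ± 0.0404 in oeALKBH5 libraries. In controls they stood at 8.02 ± 0.557 and 1.26 ± 0.190 (SD, n = 3 each).

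The 2 tested angiopoietin-like genes moved in opposite directions. The ratio of ANGPTL4 to ANGPTL8 in FPKM was 22.17, 15.01 and 17.69 in oeALKBH5 libraries against 4.20, 4.45 and 5.15 in the controls. The groups did not overlap in that ratio (exact two-sided permutation p = 0.1, the smallest that 3 against 3 allows). That outcome was fixed in advance, since each gene's groups were already apart and in opposite directions. The ratio therefore adds no support to the results of the 2 genes. In a list of 7 other angiopoietin and angiopoietin-like genes 3 were tested. By edgeR 1 rose and 0 fell, with the same counts at an unadjusted p under 0.05, where 20.8% of all tested genes rose and 22% fell. The gene that rose was ANGPT1, a ligand of the TIE2 receptor, by 0.27 on the log2 scale (edgeR adjusted p = 0.0263). DESeq2 did not call it (adjusted p = 0.108), and edgeR did not in 5 of the 6 fits without 1 library.

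ANGPTL6 (Entrez 83854; chromosome 19, 10092338 to 10102796, minus strand) was at or near the limit of detection in every library. It held 2, 1 and 1 counts in oeALKBH5 and 1, 4 and 0 in control libraries. Summed over a group this was 4 counts (exact 95% Poisson interval 1.09 to 10.2) against 5 (1.62 to 11.7), which covers counting error only. A count of 0 allows up to 3 counts, or 0.155 to 0.161 CPM in these libraries. No difference was detectable at this depth, and no fold is given. These counts come from 2 ANGPTL6 transcripts; other curated RefSeq transcripts of the gene were not analysed here, so the counts need not cover the whole gene.

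LIPC (Entrez 3990; chromosome 15, 58410569 to 58569843, plus strand) was the most abundant of the 6 genes. Its main curated transcript has 9 exons over 2751 nt. Its counts were 2351, 2388 and 2358 in oeALKBH5 libraries against 2673, 2646 and 2690 in the controls, or 122, 124 and 123 CPM against 144, 140 and 143 CPM. The replicates were tight and the groups did not overlap. The fall was small, -0.21 on the log2 scale (SE 0.0447, 95% interval -0.30 to -0.11, edgeR adjusted p = 0.000920). With library size alone in place of TMM it was -0.13 (adjusted p = 0.0243). In FPKM the level was 73.2 ± 0.449 against 80.4 ± 0.936 (SD, n = 3 each; limma adjusted p = 0.0153). That FPKM difference missed the threshold when control replicate 3 was left out (adjusted p = 0.0658). An annotated antisense gene, LIPC-AS1, lies within the locus and shares 0 exon bases with LIPC.

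LIPG (Entrez 9388; chromosome 18, 49560699 to 49599182, plus strand) fell more than LIPC. Among its curated transcripts NM_006033 is long, 10441 nt in 10 exons, with 1500 coding nt. By library it took 4.90% to 30.4% of the gene's estimated count. The libraries held 359, 370 and 365 counts of LIPG in oeALKBH5 against 554, 532 and 526 in the controls, or 18.7, 19.2 and 19.1 CPM against 29.8, 28.1 and 27.9 CPM. All oeALKBH5 libraries lay below all controls, by far more than the spread within either group. The log2 fold change was -0.59 (SE 0.0680, 95% interval -0.73 to -0.45, edgeR adjusted p = 9.70e-07), and it kept its sign and passed in each alternative run on counts. In FPKM the level was 3.81 ± 0.147 against 5.60 ± 0.167 (SD, n = 3 each; limma adjusted p = 1.60e-04).

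LPL (Entrez 4023; chromosome 8, 19901717 to 19967259, plus strand) was nearly absent from these libraries. It held 0, 0 and 2 counts in oeALKBH5 and 1, 2 and 0 in control libraries, a sum of 2 (exact 95% Poisson interval 0.242 to 7.22) against 3 (0.619 to 8.77). No difference was detectable. GPIHBP1, which anchors lipoprotein lipase on capillary cells, held 1 count in all 6 libraries together. Fat cells make much LPL; of their markers ADIPOQ and PLIN1 stood at 0.937 ± 0.416 and 1.84 ± 0.427 CPM in oeALKBH5 and 0.973 ± 0.366 and 2.02 ± 0.421 CPM in control libraries (SD, n = 3 each), and CIDEC was higher, at 33.7 ± 5.20 against 55.5 ± 4.77 CPM.

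Compared per length of transcript, LIPC led at 80.4 FPKM in controls, with 6.09% of detected genes above it. ANGPTL4 and LIPG came next, and in controls they did not differ beyond their spread: ANGPTL4 was at 6.09, 5.61 and 5.51 FPKM and LIPG at 5.78, 5.57 and 5.45 FPKM. In oeALKBH5 libraries the 2 genes separated, and the ratio of ANGPTL4 to LIPG was 3.95, 2.74 and 2.99 against 1.05, 1.01 and 1.01 in controls (exact two-sided permutation p = 0.1, the smallest possible). With each gene's groups already apart in opposite directions, that p was fixed in advance and adds no support. ANGPTL8 was lower than both, and ANGPTL6 and LPL lay at the bottom with overlapping values. Summed FPKM depends on how the model divides a gene's reads among transcripts of unlike length. That division was least steady for LIPG, as given below, so its FPKM level and ratios carry that limit. The ratio of LIPC to LIPG in FPKM was 20.01, 18.69 and 18.95 in oeALKBH5 and 14.0, 14.2 and 14.9 in control libraries (exact two-sided permutation p = 0.1, the smallest possible). That ratio restates the larger fall of LIPG beside that of LIPC and adds no support to either.

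**Figure D2:**
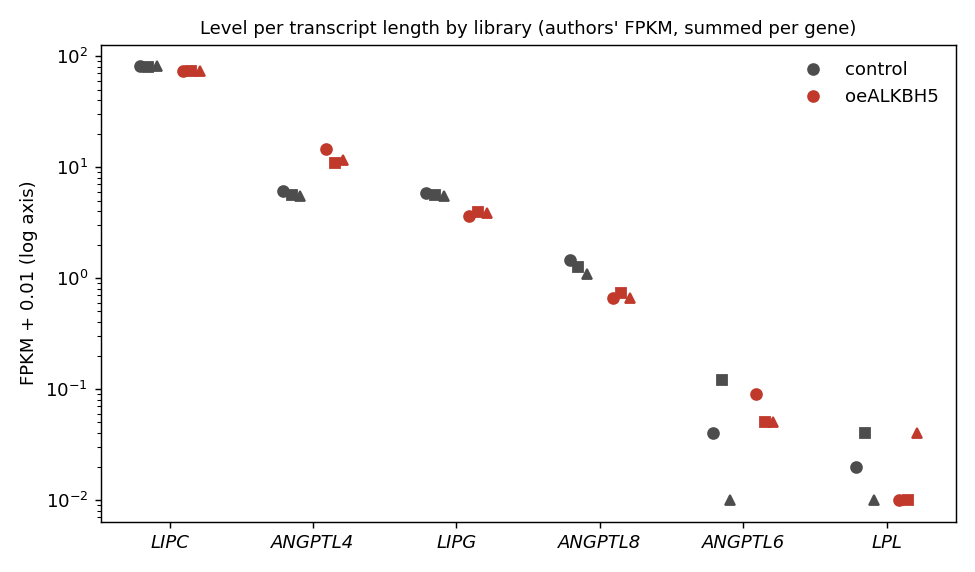
The authors' FPKM summed per gene, plus 0.01 (y axis, log scale), for the 6 genes (x axis), with 1 point per library (grey control, red oeALKBH5; circle, square and triangle for replicates 1, 2 and 3). ANGPTL4 and LIPG overlap near 5.6 FPKM in controls and part in oeALKBH5, at 10.8 to 14.4 and 3.65 to 3.94 FPKM.

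The estimated counts divide each gene among its RefSeq transcripts by a model, and the division was less steady than the gene totals. For ANGPTL4 the curated transcript NM_139314 took 74.5%, 75.8% and 93.0% of the count in oeALKBH5 and 83.1%, 75.8% and 68.6% in control libraries. The other curated transcript, NM_001039667, took 25.5%, 24.2% and 0.0152% against 8.89%, 9.04% and 22.8%. Its share thus ranged more within each group than between the groups' means of 16.6% and 13.6%. The 2 transcripts differ by exon 4, printed because the division between them rests on it: chr19:8369219-8369332 on the plus strand of GRCh38, 114 nt or 38 whole codons, from the GENCODE release 29 transcript matched to NM_139314.
ANGPTL4 exon 4: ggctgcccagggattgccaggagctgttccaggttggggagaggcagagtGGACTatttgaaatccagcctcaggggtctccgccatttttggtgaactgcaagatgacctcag
Capitals mark GGACT, a common form of the sequence in which m6A is placed (GGACU in RNA). The whole ANGPTL4 transcript held 6 such matches, or 3.19 per kb, where the median over 78125 protein-coding transcripts of at least 500 nt was 0.987 per kb. The other genes were counted in 1 curated transcript each. ANGPTL8 held 0 in 872 nt, LIPC 3 (1.09 per kb), LIPG 10 (0.958 per kb), ANGPTL6 3 (1.68 per kb) and LPL 4 (1.04 per kb). For LIPC and LIPG that transcript, NM_000236 and NM_006033, took 14.5% to 17.6% and 4.90% to 30.4% of the gene's count by library. Their other transcripts were not searched. At least 1 match was in 78.0% of the 78125 protein-coding transcripts. No m6A was measured in these samples, and a match is not a modified site.

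For LIPC, the predicted transcript XM_005254372 took most of the count in each library, from 58.8% to 67.5%, and the curated NM_000236 from 14.5% to 17.6%. LIPG was the least steady: the predicted XM_011526267 took 44.8%, 15.2% and 2.55% in oeALKBH5 and 39.6%, 41.3% and 49.7% in control libraries. Its fellow XM_017026095 took 0%, 6.41% and 33.9% against 0%, 5.38% and 6.19%. The gene total of LIPG was nearly the same in those 3 oeALKBH5 libraries, at 18.7 to 19.2 CPM. Tested as transcripts by edgeR, 0 of the 16 with enough counts passed, beside 1.01% of 45502 transcripts (0.281% higher and 0.732% lower). At an unadjusted p under 0.05 there were 2, NM_139314 of ANGPTL4 (log2 fold change 1.10, SE 0.200, adjusted p = 0.0889) and XM_005254372 of LIPC (-0.28, SE 0.0576, adjusted p = 0.112). DESeq2 passed those same 2 transcripts. The plot of transcript shares shows this spread by library.

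**Figure D3:**
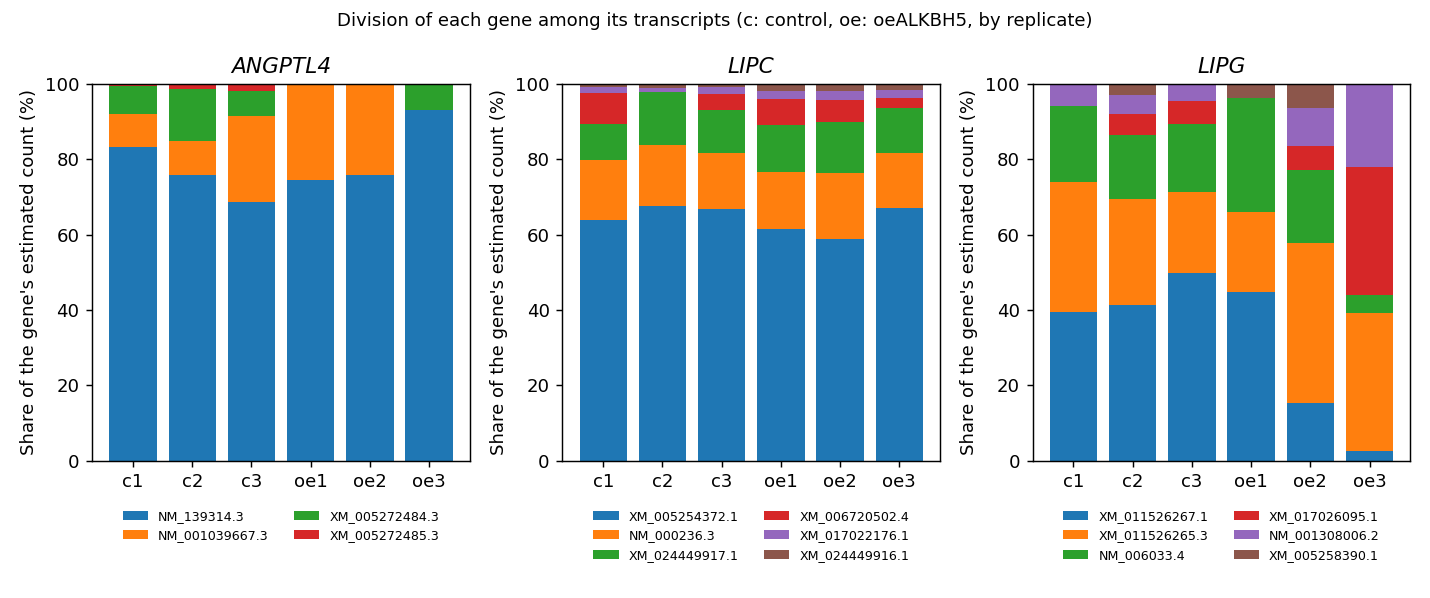
Share of each gene's estimated count in its RefSeq transcripts (y axis, percent) for ANGPTL4, LIPC and LIPG, by library (x axis; c1 to c3 control, oe1 to oe3 oeALKBH5 replicates). XM_005254372 fills 58.8% to 67.5% of LIPC in all 6 libraries, while XM_011526267 of LIPG runs from 2.55% to 44.8% within the oeALKBH5 group.

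The genes whose profile over the 6 libraries was nearest to each of the 4 tested genes were found by the root mean square difference of centred log2 CPM. For ANGPTL4 these were FHL2, a LIM domain cofactor (0.0640), TMCC1, a membrane protein of the endoplasmic reticulum (0.0761), and SLC2A1, the glucose transporter GLUT1 (0.0761). SLC2A1 went from 33.8 ± 2.22 to 64.2 ± 8.94 CPM (SD, n = 3 each), and FHL2 from 5.13 ± 0.260 to 10.9 ± 1.37 CPM. For LIPG they were CLU, the secreted chaperone and HDL component clusterin (0.00888), PPARD, a fatty acid sensing nuclear receptor (0.0217), and CPLX1 (0.0283). CLU fell from 1168 ± 47.0 to 777 ± 13.4 CPM. For LIPC they were PPIL2 (0.009996), MRPS11 (0.0132) and UNKL (0.0138), and for ANGPTL8 URAD (0.0608), RFLNA (0.0653) and UNC5B (0.0830). The profiles follow the 2 groups, and many genes moved with them.

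Genes that help or oppose the lipases were taken from lists. Among 8 apolipoproteins that regulate the lipases, 7 fell and 0 rose by edgeR, with the same counts at an unadjusted p under 0.05, with DESeq2 and in each fit without 1 library. Their median log2 fold change was -0.57, beside 0.01 for all tested genes, of which 20.8% rose and 22% fell. Both activators and inhibitors were among them. APOC2, the required activator of lipoprotein lipase, went from 327 ± 8.14 to 268 ± 2.92 CPM (SD, n = 3 each). APOC3, which inhibits triglyceride clearance, went from 98.5 ± 5.58 to 55.9 ± 3.32 CPM (log2 fold change -0.82, SE 0.0573, edgeR adjusted p = 9.64e-10). APOA5, which promotes lipolysis, fell by 1.29 (SE 0.161) and APOA4 by 2.23 (SE 0.125) on the log2 scale. APOC4 did not pass (-0.34, 95% interval -1.08 to 0.39). The hepatocyte markers, which moved the same way, had a median of -0.52 with 9 of 9 lower; their part in these changes was not tested.

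Of 7 tested genes of lipase maturation, transport and cleavage, 1 rose and 3 fell, where 20.8% of all tested genes rose and 22% fell. LMF1, which the lipases need to fold in the endoplasmic reticulum, fell from 14.8 ± 0.578 to 11.4 ± 0.598 CPM (log2 fold change -0.37, SE 0.0859, edgeR adjusted p = 0.00183). FURIN, a protease that cleaves ANGPTL4 and the lipases, rose by 0.16 (SE 0.0435, adjusted p = 0.00609), but missed the threshold when control replicate 2 was left out (adjusted p = 0.0523). The related protease PCSK7 fell by 0.18 and SEL1L, which supports lipase export, by 0.13 (edgeR adjusted p = 0.0125 and 0.0458). The SEL1L call held in 6 of its 15 alternatives on counts, with adjusted p up to 0.457. PCSK7 did not pass with library size alone (adjusted p = 0.147), and on FPKM neither gene passed (limma adjusted p = 0.243 for PCSK7 and 0.477 for SEL1L). With library size alone this list had 2 higher and 1 lower. In the lipase gene family, the phospholipase PLA1A rose from 5.16 ± 1.19 to 8.17 ± 1.18 CPM (log2 fold change 0.66, SE 0.153, edgeR adjusted p = 0.00226) and LIPH did not pass (-0.16, 95% interval -0.38 to 0.06). LMF2, PCSK5 and PCSK6 were tested and did not pass (adjusted p = 0.260, 0.378 and 0.102), and GPIHBP1 and LIPI had too few counts.

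**Figure D4:**
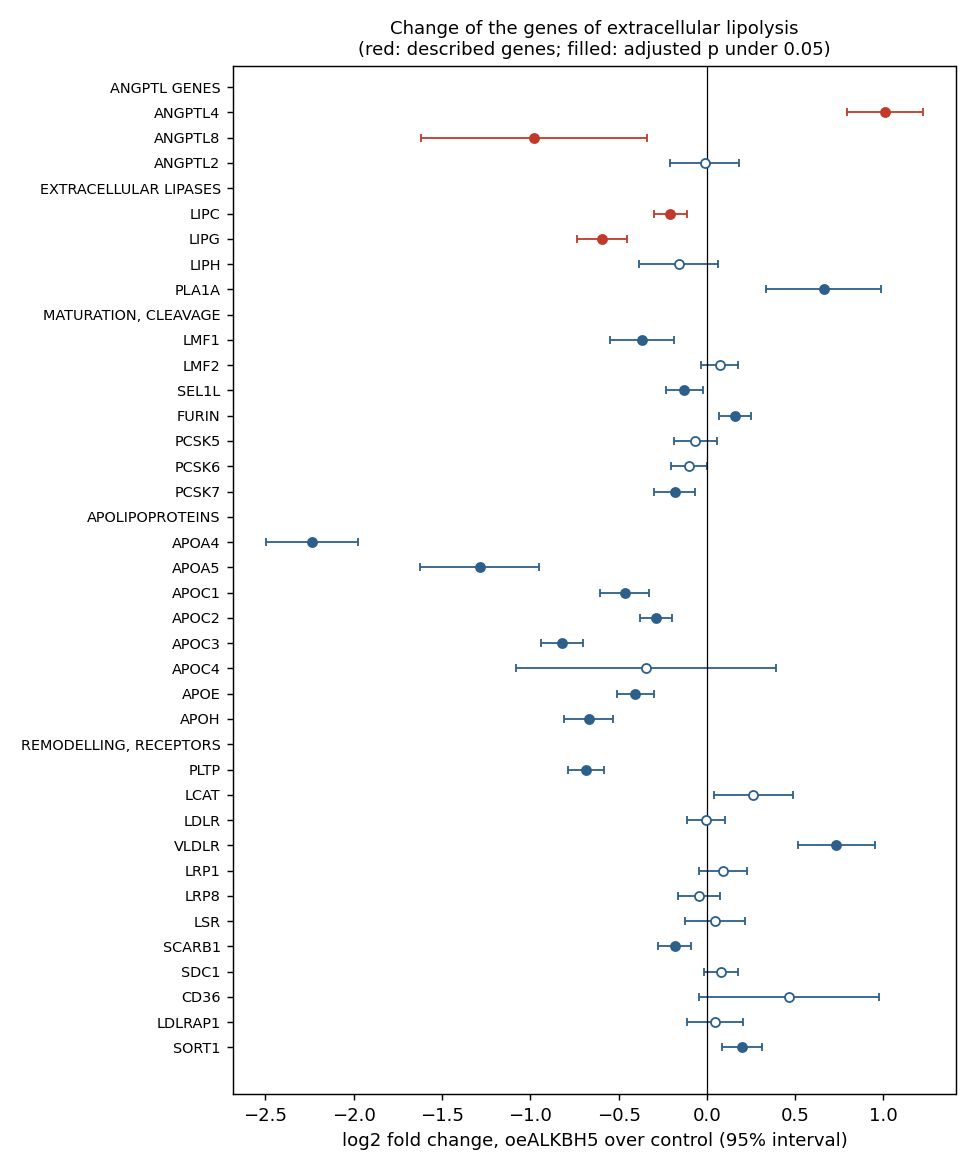
Log2 fold change of oeALKBH5 over control with its 95% interval from the edgeR fit (x axis) for tested genes of extracellular lipolysis, grouped by role (y axis); red marks the genes described here and filled points passed at an adjusted p under 0.05. The 8 apolipoproteins all lie left of 0, with APOC4 not passing, while ANGPTL4 lies to the right.

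Of 12 tested genes of lipoprotein remodelling and uptake, 2 rose, 2 fell and 8 did not pass, where 20.8% of all tested genes rose and 22% fell. With library size alone 5 of the 12 rose and 1 fell. VLDLR, a receptor that takes up triglyceride-rich particles, rose from 8.83 ± 0.578 to 14.7 ± 2.05 CPM (log2 fold change 0.73, SE 0.105), and SORT1, a sorting receptor for apolipoprotein B, rose by 0.20 (SE 0.0536). PLTP, the phospholipid transfer protein, fell from 304 ± 17.0 to 189.5 ± 5.37 CPM (-0.68, SE 0.0488). The edgeR adjusted p of these 3 ran from 1.27e-09 to 0.00513. The HDL receptor SCARB1 fell by 0.18, a call that library size alone (adjusted p = 0.0538) and FPKM (limma adjusted p = 0.0867) did not keep.

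Transcription factors with a known part in the control of these genes moved both ways. For the lists of this paragraph, the share over all tested genes by edgeR was 20.8% higher and 22% lower. Of 23 tested, 5 rose, 8 fell and 10 did not pass (median -0.05); with library size alone it was 7 and 4, and with 1 library left out the number that fell ran from 4 (without oeALKBH5 replicate 2) to 10 (without oeALKBH5 replicate 1). The fatty acid sensing receptors of the PPAR family differed in direction: PPARG rose by 0.27 (SE 0.0567), while PPARD fell by 0.55 (SE 0.0563) and PPARA by 0.26 (SE 0.0648). PPARA did not pass on FPKM (-0.12, limma adjusted p = 0.200), where its groups overlapped. HIF1A, the oxygen-regulated factor, was at 0.30 (SE 0.0622), FOXO1 at 0.36 (SE 0.0745) and SREBF2, the regulator of cholesterol genes, at -0.37 (SE 0.0493). The edgeR adjusted p of these 6 was at most 0.00316. EPAS1 and ARNT, of the same list as HIF1A, did not pass (-0.05 and -0.06, edgeR adjusted p = 0.467 and 0.455). Only RNA of these factors was measured, not protein. Of 13 tested genes known to respond to PPAR receptors, 1 rose and 7 fell (2 and 5 with library size alone; median -0.14). PLIN2, the lipid droplet coat protein, rose by 0.52 (SE 0.0504), and the fatty acid binding protein FABP1 and the carnitine carrier SLC25A20 fell by 0.88 (SE 0.0436) and 0.47 (SE 0.0551). Of 12 tested hypoxia-responsive genes 10 rose and 0 fell by edgeR (median 0.47), with the same counts at an unadjusted p under 0.05 and 8 and 0 with DESeq2. Without oeALKBH5 replicate 1, 9 rose and 1 fell. Among these were the demethylase KDM3A (0.74, SE 0.0581) and the oxygen sensor EGLN1 (0.52, SE 0.0606), besides SLC2A1 (0.93, SE 0.0905). One of the 10, ANKRD37, exceeded the count filter in the oeALKBH5 group only and was not called by DESeq2 (adjusted p = 0.114). The part of any of these factors in the changes of the 6 genes was not tested.

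Markers of other cells that make or bind these proteins were low or mixed. Of 7 endothelial markers 1 was tested, PECAM1, which fell by 0.70; KDR held 1 count in all and CDH5 at most 9 per library, and the list summed to 12.01 to 12.58 CPM in oeALKBH5 and 17.6 to 21.3 CPM in controls. Of 5 adipocyte markers 3 were tested and CIDEC fell, with sums of 33.2 to 43.5 against 54.6 to 64.0 CPM and FABP4 at 2 counts or fewer per library. Of 6 macrophage markers 4 were tested and MARCO fell, with sums of 138 to 162 against 146 to 150 CPM, mostly CD68. Of 6 stellate and fibroblast markers 3 were tested and COL1A1 and COL1A2 rose, with sums of 27.0 to 27.4 against 19.9 to 20.6 CPM. Of 6 striated muscle markers only ACTA1 was tested and rose, though it exceeded the count filter throughout the oeALKBH5 group alone, with sums of 1.252 to 1.819 against 0.633 to 1.06 CPM. Among all tested genes 20.8% rose and 22% fell, and the part of these markers in the results above was not tested.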

How the data were processed

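Messenger RNA was sequenced from 3 oeALKBH5 and 3 control Huh-7 libraries. For each RefSeq transcript the authors deposited an estimated count, unscaled between libraries, and an FPKM value. The submitters' processing notes name RSEM 1.2.8, Bowtie2 2.2.5, HISAT2 2.1.0 and the build GRCh38.p13, with roles not given in the sources used here. Transcripts sharing an Entrez identifier were added up to 1 gene and rounded; symbols came from RefSeq for 17881 of 18030 genes.

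Genes were tested with edgeR 4.0.16 (R 4.3.3): TMM scaling, an expression filter at a minimum count of 10, a robust quasi-likelihood model of group alone, two-sided, Benjamini-Hochberg over all genes, passing at an adjusted p under 0.05. Each SE is |log2 fold change| divided by √F. limma 3.58.1 tested log2(FPKM + 1) where 3 libraries or more reached an FPKM of 1; this scale understates changes of low genes. Transcripts were tested as genes were. DESeq2 1.42.0 was an alternative. On simulated counts for 14152 genes, edgeR recovered 64% of 1.25-fold, 98% of 1.5-fold and 100% of 2-fold changes, with 5 false calls. For 49653 simulated transcripts it recovered 88% of 2-fold changes. The simulation gave every feature the same low dispersion and changed only features with higher counts than ANGPTL8. It did not carry the unsteady division among transcripts, so its recovery does not apply to the real transcripts or to ANGPTL8.

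The members and lists were chosen with earlier results of these data known. Named genes were the 6 members, up to 2 that rose and 2 that fell per list by p (all passing where at most 3 passed), and the 3 nearest profiles per member (mean log2 CPM of 1 or more); others were named after their values were seen. Genes of the lists outside the tables were not analysed here, and 2 listed genes are not reported here. Figures used matplotlib 3.10.9.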

Additional observations from a re-analysis of the deposited data

How the results depend on the processing

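On counts, ANGPTL4 (log2 fold change 0.88 to 1.10), LIPG (-0.61 to -0.51) and LIPC (-0.22 to -0.13) kept their direction and passed under all 15 alternatives: other scalings, filters and tools, the replicate block, and each library left out. ANGPTL8 kept its direction in the 13 that tested it and missed the threshold in DESeq2 (-0.98, adjusted p = 0.0949) and when control replicate 1 was left out (-0.86, adjusted p = 0.0678), with -1.08 to -0.86 over the fits without 1 library; filters at a CPM of 1 or a mean count of 50 removed it. On FPKM, LIPC missed it without control replicate 3 (-0.13, adjusted p = 0.0658; -0.14 to -0.13 over such fits). There 2 of the 6 genes passed, against 4 in the full FPKM fit and 2 to 4 over such fits, as ANGPTL8 no longer reached the filter once any one control library was left out.

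With the replicate block the log2 fold changes on counts were 1.0 for ANGPTL4, -0.97 for ANGPTL8, -0.59 for LIPG and -0.21 for LIPC, and no call on these genes changed. Deviations of same-numbered libraries correlated at -0.019, 0.016 and -0.012. No pairing by number was seen, though so few libraries cannot exclude it. Calls over all genes went from 6062 to 6468 and over all transcripts from 461 to 0.

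Unadjusted library sizes gave 4266 higher and 2047 lower genes, against 2948 and 3114 with TMM, and the median of all genes was 0.085. Transcripts were the least stable: of all, 461 passed with edgeR, 4053 with DESeq2 and 7 to 160 without 1 library, and of the described genes' transcripts 0 passed with edgeR and 2 with DESeq2. Signs turned for LIPG NM_001308006 (-0.49 with the replicate block, -0.63 to 1.04 over the fits without 1 library) and XM_017026095 (-0.80 to 1.81 over such fits). They turned too for LIPC XM_006720502 (-0.52 to 0.99) and XM_024449917 (-0.19 to 0.066). The cause was not tested. Depth limits LPL and the 2 ANGPTL6 transcripts counted, for which no difference could be measured, and leaves ANGPTL8 with a wide interval.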
